A study of Homo sapiens with 4 samples.

Results

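The AP-1 and immediate early genes are described here by 10 genes, FOS, FOSB, FOSL1, FOSL2, JUN, JUNB, JUND, EGR1, EGR2 and IER3, which 11 of the 34127 probes on each array measured. The rule that picks them uses gene names and no signal, and they are 10 of 19102 genes that could be named. RNA came from PC3, an established human prostate cancer cell line, infected with a lentiviral shRNA against ALKBH3, an oxidative demethylase that repairs alkylated nucleic acids, or with a control shRNA against GFP. All cells were infected for 48 h and then selected with puromycin, and they were collected 48 h or 96 h into selection. Each shRNA and time point was measured on 1 single-colour Agilent array, 4 in all, and the labels leave the identity of the ALKBH3 shRNA unnamed.

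Members of the FOS and JUN families are leucine zipper proteins that pair to form AP-1, a factor that binds promoters and enhancers of genes for growth, invasion and stress. Several of them, and the zinc finger factors EGR1 and EGR2, are immediate early genes, which growth factors and stress switch on within minutes. Kinases then act on factors already bound at the promoters of these genes. Such factors are SRF with ETS partners at CArG boxes and CREB at cAMP response elements. FOS, FOSB and EGR1 transcripts are typically short-lived, whereas FOSL1 and FOSL2 last longer and are known from invasive carcinoma cells. IER3 is a stress-induced gene linked to cell survival.

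Promoters of some members are shown from 250 bases before to 50 bases after the start site, as RefSeq gives them for GRCh38.p14. EGR1 and EGR2 are the members whose signals did not overlap between the shRNAs. Of all genes tested, 17.4% were higher and 19.1% lower with ALKBH3 shRNA without overlap. EGR1 was not well above background on any array and was not tested. FOS, FOSB and JUNB had lower signals on both 96 h arrays, as did JUND and IER3, which are not shown. Of all genes tested, 26.4% were lower at 96 h without overlap, and FOS was not well above background at 96 h. Capitals mark the core of the cAMP response element, TGACG on either strand, the CArG box, and TATAAA. They are EGR1 (chr5:138465229-138465528, plus strand), EGR2 (chr10:62816317-62816616, minus strand, the third of 3 start sites), FOS (chr14:75278578-75278877, plus strand), FOSB (chr19:45467746-45468045, plus strand) and JUNB (chr19:12791236-12791535, plus strand).
EGR1: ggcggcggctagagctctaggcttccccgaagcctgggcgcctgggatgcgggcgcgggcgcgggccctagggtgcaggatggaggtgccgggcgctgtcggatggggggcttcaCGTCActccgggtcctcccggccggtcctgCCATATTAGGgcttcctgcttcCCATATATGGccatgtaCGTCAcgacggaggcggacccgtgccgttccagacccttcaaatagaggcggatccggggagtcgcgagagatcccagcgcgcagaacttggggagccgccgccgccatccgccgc
EGR2: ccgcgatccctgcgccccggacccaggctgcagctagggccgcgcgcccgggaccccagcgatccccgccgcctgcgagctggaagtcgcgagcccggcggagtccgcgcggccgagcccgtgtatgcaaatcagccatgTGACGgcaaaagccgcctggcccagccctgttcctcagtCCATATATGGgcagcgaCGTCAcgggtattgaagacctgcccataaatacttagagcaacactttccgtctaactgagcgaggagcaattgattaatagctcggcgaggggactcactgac
FOS: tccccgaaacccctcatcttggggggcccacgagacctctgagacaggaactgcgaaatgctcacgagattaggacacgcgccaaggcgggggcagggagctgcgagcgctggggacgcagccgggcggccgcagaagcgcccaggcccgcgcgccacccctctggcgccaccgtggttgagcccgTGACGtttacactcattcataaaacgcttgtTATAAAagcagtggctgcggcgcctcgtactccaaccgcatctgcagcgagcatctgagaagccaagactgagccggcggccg
FOSB: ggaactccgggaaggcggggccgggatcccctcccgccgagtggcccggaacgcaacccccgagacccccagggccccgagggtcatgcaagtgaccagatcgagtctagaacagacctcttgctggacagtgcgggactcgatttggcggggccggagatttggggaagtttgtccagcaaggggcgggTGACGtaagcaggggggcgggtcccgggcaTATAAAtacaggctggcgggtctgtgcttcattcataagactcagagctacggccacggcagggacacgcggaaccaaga
JUNB: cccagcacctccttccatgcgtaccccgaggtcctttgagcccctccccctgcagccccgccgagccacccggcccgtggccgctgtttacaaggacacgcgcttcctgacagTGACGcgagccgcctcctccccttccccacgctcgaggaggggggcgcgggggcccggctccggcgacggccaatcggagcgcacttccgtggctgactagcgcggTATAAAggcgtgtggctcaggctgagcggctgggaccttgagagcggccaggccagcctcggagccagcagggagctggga

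EGR1 held 2 CArG boxes, at -105 to -96 and at -83 to -74 from the start site, and the third EGR2 promoter held 1, at -71 to -62. A CArG box was present in 1.29% of 35116 promoters of the same length, on either strand, and in no other promoter of a member within the searched window. Bases more than 250 before the start site were not searched, so a box there would be missed. TGACG or its reverse was in 24.6% of all promoters and in every promoter of a member that had an entry except the first and second of EGR2. It lay at -64 to -60 in FOS, at -60 to -56 in FOSB and at -137 to -133 in JUNB. The first 5 bases of the full element TGACGTCA are that core, and the full element, found in 1.85% of promoters, was present only in JUND among the members. TATAAA, present in 11.5% of promoters, lay at -33 to -28 in FOS, at -30 to -25 in FOSB and at -31 to -26 in JUNB. JUND, also lower on both 96 h arrays, held no TATAAA in the window. The AP-1 site, TGACTCA or TGAGTCA, present in 4.95% of promoters, was found only in FOSL2 among the members, at positions 5 to 11 after the start site. The table had entries for 8 of the 10 genes, and none for FOSL1 and IER3. These matches describe letters and not binding.

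Every signal below is the log2 intensity of a probe relative to the 75th percentile of its array, so that 1 unit is a 2-fold difference and a value below 0 is dimmer than that percentile. The intensity at this percentile was between 2150 and 2394, and between 67.0% and 70.9% of the probes were well above background. Signals of different probes are not comparable, and each gene is compared only with itself. The knockdown was visible in both ALKBH3 probes, which differed by -2.03 and -1.74 at 48 h and by -2.07 and -1.51 at 96 h between ALKBH3 and control shRNA. The epithelial genes KRT8, KRT18, KRT19, EPCAM and CDH1 were well above background on all 4 arrays, while KLK3, a prostate lineage marker, was on none. CDH1, for the adhesion protein E-cadherin, fell by 1.33 on the log2 scale at 96 h, past the cutoffs used below, and was higher with ALKBH3 shRNA by 0.74 (limma adjusted p = 0.887, and 0.0472 with time point as a block). EPCAM, another epithelial adhesion gene, was higher with ALKBH3 shRNA by 0.96 at 48 h and 0.99 at 96 h (limma adjusted p = 0.418, and 0.0265 with the block), and the part of these markers in the results was not tested. Of 8 markers of leukocytes, endothelium and fibroblasts, 6 were well above background on all 4 arrays, VWF on 3 and COL1A2 on none, and the 7 tested differed between the shRNAs by -0.59 to 0.71 and between the time points by -0.50 to 0.52. None of these 7 passed the cutoffs. In bulk RNA, fewer cells of a type and less RNA per cell cannot be told apart.

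**Figure D1:**
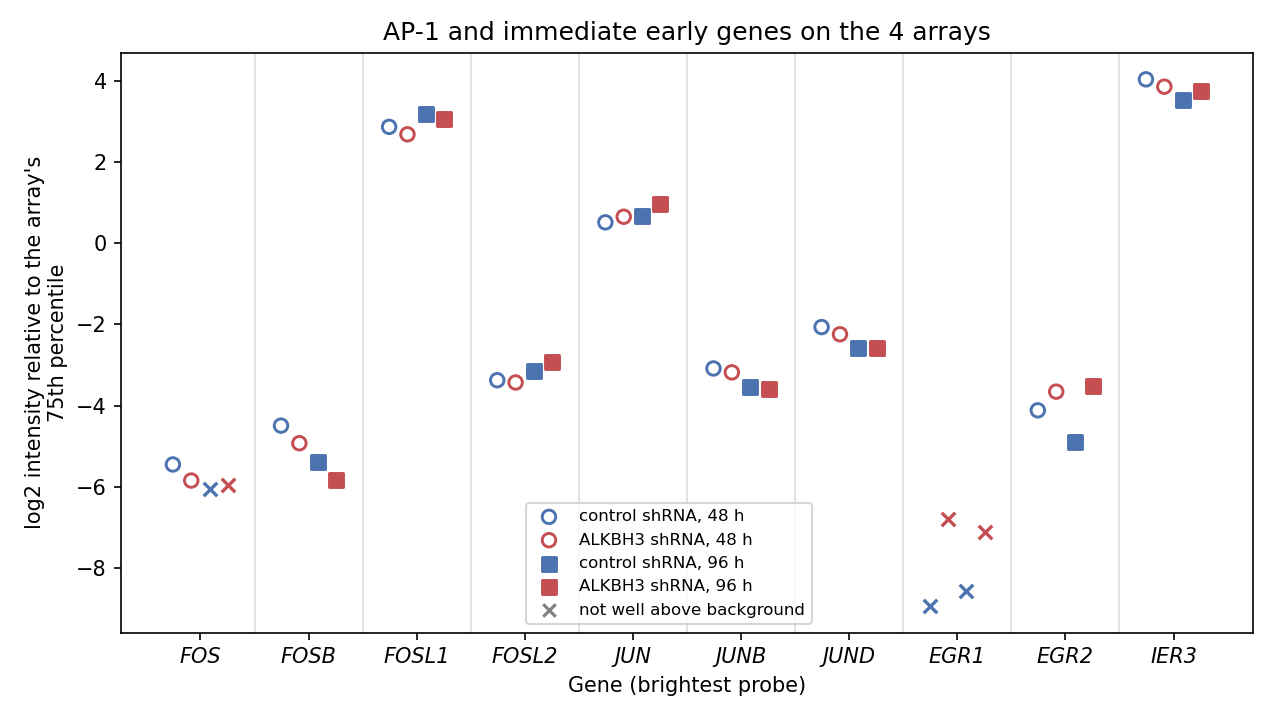
Signal of each member on the 4 arrays, as log2 intensity relative to the 75th percentile of the array. Blue marks control shRNA and red ALKBH3 shRNA, circles 48 h and squares 96 h, and crosses a signal not well above background on that array. Values are to be read within a gene. EGR2 lies higher on both red symbols, and FOSB, JUNB and JUND lie lower at 96 h.

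The first question was whether the loss of ALKBH3 moved these genes. EGR2, which drives myelination and limits lymphocyte activation, had the largest difference, 1.89-fold higher with ALKBH3 shRNA. The FOS and JUN family genes tested differed by less than 0.45 on the log2 scale in either direction, and IER3 by 0.01. No member passed the cutoffs of a 2-fold difference and an unadjusted p below 0.05. FOS and EGR1 were too dim to be tested between the shRNAs.

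At 48 h the EGR2 signal was -4.11 under control and -3.65 under ALKBH3 shRNA, and at 96 h it was -4.89 and -3.52, in that order. Both arrays with ALKBH3 shRNA lay above both control arrays, and the lowest of the 4 values was the control at 96 h. The difference was 0.46 at 48 h and 1.37 at 96 h, each from 1 array against 1 array, and these were not tested against each other. Over both time points it was 0.92 ± 0.29 (SE, n = 2 arrays per shRNA), with an unadjusted p of 0.0277 and an adjusted p of 0.529 in limma. It was 0.52 with normexp background correction and 0.53 when the 96 h control array was left out. Leaving out the 48 h control array instead gave 1.31, past the cutoffs.

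EGR1, the growth-factor-induced zinc finger factor, was not well above background on any array. At 48 h its spot intensity was 4.39 under control and 20.7 under ALKBH3 shRNA, and at 96 h it was 6.16 and 17.3. The ALKBH3 arrays were the brighter ones at both time points, but no fold is given since neither group was well above background. EGR3 and EGR4, the remaining EGR genes, were likewise well above background on none of the arrays. FOS was well above background on both 48 h arrays only, with -5.45 for control and -5.84 for ALKBH3 shRNA. At 96 h it read -6.06 and -5.96, so that the shRNAs overlapped.

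FOSB, a FOS protein whose truncated form persists in chronically stimulated cells, read -4.49 under control and -4.92 under ALKBH3 shRNA after 48 h, and -5.38 and -5.83 after 96 h. It was lower with ALKBH3 shRNA by about the same amount at both time points (-0.43 and -0.45), and the groups overlapped because the time points lay further apart. The difference of -0.44 ± 0.44 (SE, n = 2) had an adjusted p of 0.904 in limma. With time point as a block, which takes the shift between time points out of the error, its adjusted p was 0.0596. FOSL1, the FOS protein called FRA1, was 2.86 and 2.68 at 48 h and 3.18 and 3.07 at 96 h, in the order control and ALKBH3 shRNA. FOSL2, called FRA2, was -3.37 and -3.43 at 48 h and -3.14 and -2.93 at 96 h. Neither FOSL gene separated the shRNAs, with differences of -0.15 ± 0.20 (SE) and 0.08 ± 0.21 (SE) and adjusted p-values of 0.942 and 0.980 in limma.

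JUN, the AP-1 subunit with the strongest transactivation, read 0.51 under control and 0.65 under ALKBH3 shRNA after 48 h, and 0.66 and 0.97 after 96 h. The ALKBH3 arrays were higher at each time point, but the 96 h control lay between them. The difference was 0.22 ± 0.16 (SE, n = 2), with an adjusted p of 0.831 in limma. JUNB and JUND, which often restrain JUN-driven growth, differed by -0.08 ± 0.23 (SE) and -0.09 ± 0.23 (SE), with adjusted p-values of 0.985 and 0.980 in limma. The JUNB difference was -0.10 at 48 h and -0.06 at 96 h, and the JUND difference -0.18 and 0.003. In both genes the shRNAs overlapped.

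The brighter of the IER3 probes read 4.03 under control and 3.85 under ALKBH3 shRNA after 48 h, and 3.53 and 3.73 after 96 h. The second probe read 3.11 and 2.89 at 48 h and 2.55 and 2.76 at 96 h, so both probes were lower with ALKBH3 shRNA at 48 h and higher at 96 h. The difference over both time points was 0.01 ± 0.20 (SE, n = 2), with an adjusted p of 0.995 in limma.

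Of the 8 members tested between the shRNAs, 4 had a positive and 4 a negative difference, with a median of -0.03 beside -0.003 over all 14556 genes tested. The cutoffs were passed by 0 members, while 1.04% of all genes tested were higher and 0.234% lower by them. At an unadjusted p below 0.05 alone, 1 of the 8 passed, EGR2, where 8.33% of all genes did. With time point as a block and an adjusted p below 0.05, 0 members passed, against 2.96% of all genes higher and 1.5% lower. Groups that did not overlap occurred in 1 of the 8, EGR2, whereas 17.4% of all genes were higher and 19.1% lower without overlap. The adjusted p without a block was passed by 0 of all genes, with a smallest value of 0.0673 in limma. These p-values measure only the spread between 2 arrays per shRNA, which holds the change with time. An exact permutation test of 2 against 2 arrays cannot go below 0.333.

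**Figure D2:**
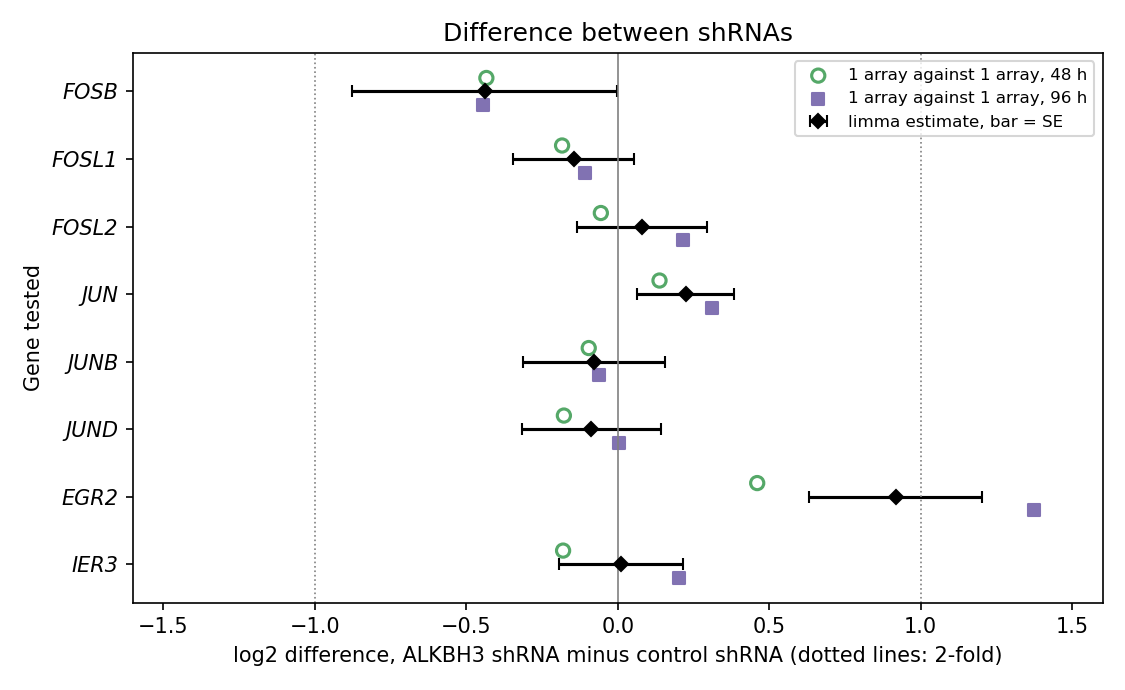
Difference between ALKBH3 and control shRNA in the 8 members tested, as log2. Black diamonds with bars are the limma estimate and its SE over 2 arrays per shRNA, open circles the 48 h and squares the 96 h pair of arrays, and dotted lines a 2-fold difference. EGR2 stands at 0.92, and the other estimates lie between -0.44 and 0.22.

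The second question was how the genes differed between 48 h and 96 h of selection. Most members differed in the same direction with either shRNA. FOSB, JUNB, JUND, FOS and IER3 were dimmer at 96 h, while FOSL1, FOSL2 and JUN were brighter. FOSB had the largest difference, to 0.537-fold. No member passed the cutoffs, and FOSB and JUNB passed an adjusted p when the shRNA was taken as a block. The 48 h arrays shared 1 slide and the 96 h arrays another, so that time and slide cannot be told apart.

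The FOSB values given above fell into a higher pair at 48 h and a lower pair at 96 h. The difference was -0.89 among control arrays, -0.90 among ALKBH3 arrays, and -0.90 ± 0.23 (SE, n = 2 arrays per time point) over both. Its adjusted p was 0.172 in limma, and 0.0219 with the shRNA as a block. It was -0.32 with normexp background correction, and it passed the cutoffs with quantile normalization (-1.01), on leaving out the 48 h ALKBH3 array (-1.11) and on leaving out the 96 h control array (-1.12).

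FOS, the founding AP-1 partner of JUN, was not well above background at 96 h, so its difference is uncertain. The measured difference with the main processing was -0.37, or 1.29-fold lower at 96 h than at 48 h, with an adjusted p of 0.314 in limma. That difference was -0.25 with normexp background correction and -0.17 without the 48 h control array. The measured difference was -0.62 among control arrays and -0.12 among ALKBH3 arrays. The 2 arrays at 48 h were both above the 2 at 96 h.

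JUNB read -3.08 under control and -3.18 under ALKBH3 shRNA after 48 h, and -3.54 and -3.60 after 96 h. The time points did not overlap, and the spread within each was narrow. The difference was -0.44 ± 0.09 (SE, n = 2), with an adjusted p of 0.144 in limma and of 0.0381 with the shRNA as a block. It was -0.20 with normexp background correction and -0.19 in the authors' normalized values. JUND was -2.06 and -2.24 at 48 h and -2.57 and -2.57 at 96 h. This gene too was lower on both 96 h arrays, with a difference of -0.42 ± 0.11 (SE, n = 2), with an adjusted p of 0.171 in limma and of 0.0520 with the block.

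FOSL1 and FOSL2 lay on the other side. Both were higher on each 96 h array than on either 48 h array, FOSL1 by 0.35 ± 0.11 (SE, n = 2) and FOSL2 by 0.36 ± 0.12 (SE, n = 2). Their adjusted p-values were 0.222 and 0.216 in limma, and 0.0574 and 0.0820 with the block. JUN was higher at 96 h by 0.23 ± 0.14 (SE, n = 2), with an adjusted p of 0.438 in limma. The lowest JUN value at 96 h, 0.66, was only just above the highest at 48 h, 0.65, and the difference was 0.09 in the authors' normalized values.

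EGR2 was lower at 96 h among control arrays and higher among ALKBH3 arrays, while IER3 was lower at 96 h with either shRNA. The EGR2 difference was -0.78 among control arrays and 0.13 among ALKBH3 arrays, and the time points overlapped. Over both it was -0.32 ± 0.50 (SE, n = 2), with an adjusted p of 0.755 in limma, and without the 96 h ALKBH3 array it was -1.01 and passed the cutoffs. The IER3 difference was -0.50 among control arrays and -0.12 among ALKBH3 arrays. The time points did not overlap in IER3, and the estimate was -0.31 ± 0.13 (SE, n = 2), with an adjusted p of 0.286 in limma. The EGR1 intensities were not well above background at either time. Whether a change with time differed between the shRNAs was not tested, since each is 1 array against 1 array.

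Of the 9 members tested between the time points, 3 had a positive and 6 a negative difference, with a median of -0.32 beside -0.008 over all 14559 genes tested. The cutoffs were passed by 0 members, while 0.247% of all genes were higher and 0.79% lower at 96 h by them. At an unadjusted p below 0.05 alone, 5 of the 9 passed, FOSB, FOSL1, FOSL2, JUNB and JUND, where 19.3% of all genes did. With the shRNA as a block, 0 members were higher and 2 lower at an adjusted p below 0.05, against 6.15% and 7.25% of all genes. Groups did not overlap in 8 of the 9, with 3 higher and 5 lower at 96 h, where 26.9% of all genes were higher and 26.4% lower without overlap. FOS is among the 6 negative and these 5 lower members. It was tested only because its 48 h arrays were well above background, which favours a lower value at 96 h. The adjusted p without a block was passed by 0 of all genes, with a smallest value of 0.112 in limma.

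**Figure D3:**
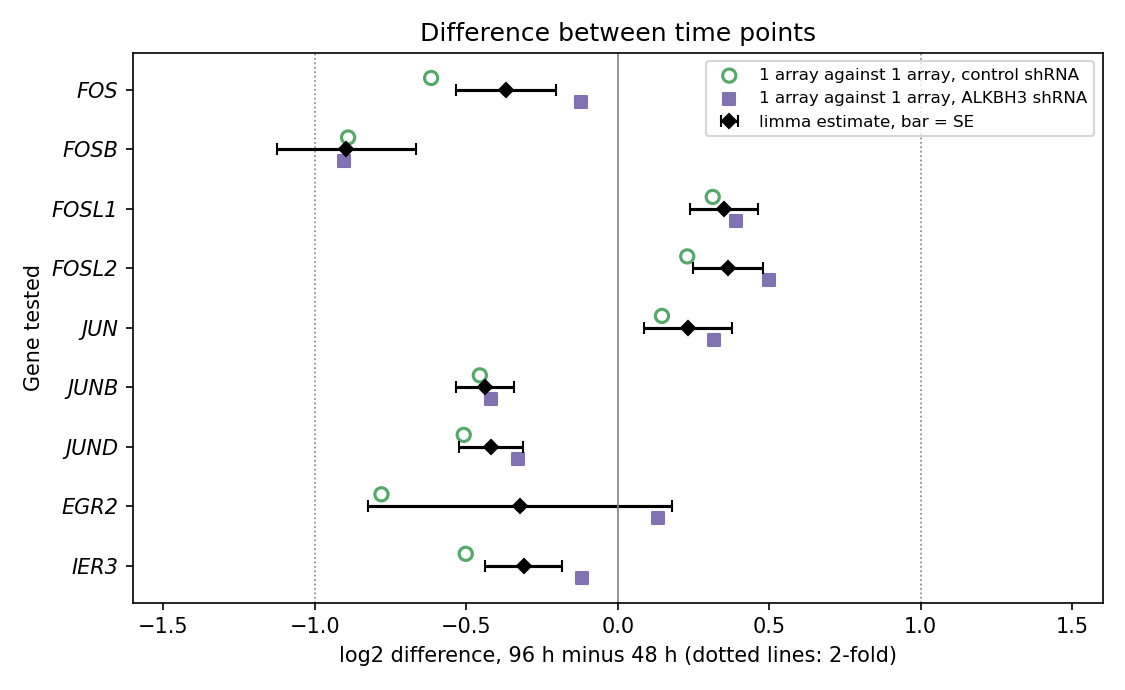
Difference between 96 h and 48 h in the 9 members tested, as log2. Black diamonds with bars are the limma estimate and its SE over 2 arrays per time point, open circles the control and squares the ALKBH3 pair of arrays, and dotted lines a 2-fold difference. FOSL1, FOSL2 and JUN lie right of 0 and FOS, FOSB, JUNB, JUND and IER3 left of it with both shRNAs, whereas the EGR2 pairs lie at -0.78 and 0.13.

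Other genes of these pathways were taken as lists and counted the same way. Their counts with the block stand beside 2.96% of all genes higher and 1.5% lower between the shRNAs. Between the time points the shares of all genes were 6.15% higher and 7.25% lower. A positive difference was found in 49.4% of all genes between the shRNAs and in 48.7% between the time points. Among 12 other bZIP partners of FOS and JUN, 10 were tested. Between the shRNAs 7 were positive and 3 negative, with a median of 0.17. BATF3, a partner of JUN best known from dendritic cells, rose, and its values were -1.56 and -1.55 on the control arrays and -0.53 and -0.52 on the ALKBH3 arrays. The difference was 1.03 ± 0.11 (SE, n = 2), with an adjusted p of 0.330 in limma and of 0.0264 with the block, and it missed the cutoffs with normexp background correction (0.992) and with median centring (0.999). BATF2, an interferon-inducible relative, had the largest difference, 1.34 ± 0.72 (SE), but it was 2.04 at 48 h and 0.63 at 96 h and did not pass. It passed the cutoffs with the block and without the 96 h ALKBH3 array (2.35), and was 0.32 without the 48 h ALKBH3 array. The small MAF protein gene MAFK had the lowest, -0.22. With the block 3 of the 10 were higher at an adjusted p below 0.05 and 0 lower.

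Of these partners, 2 were positive and 8 negative between the time points, with a median of -0.21. ATF3, a stress-induced bZIP factor, fell by 1.02 on the log2 scale at 96 h, from -0.32 and 0.24 at 48 h to -1.37 and -0.75. Its SE was 0.30 and its adjusted p 0.197 in limma, and 0.0219 with the block. The mean over the ATF3 probes was -0.39, so the probes disagreed. The cutoffs were also missed by the methods' t-test, with normexp (-0.96), quantile normalization (-0.999), median centring (-0.96) and the authors' values (-0.98), and on leaving out the 48 h ALKBH3 array (-0.74) or the 96 h control array (-0.71). BATF2 had the lowest difference, -1.32 ± 0.73 (SE), and did not pass. It passed the cutoffs with the block and without the 48 h control array (-2.34), and was -0.30 without the 48 h ALKBH3 array. With the block 0 were higher and 2 lower.

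The other immediate early genes numbered 23, of which 20 were tested and 0 passed the cutoffs in either comparison. Between the shRNAs 13 were positive and 7 negative, with a median of 0.10. CCN1, a matricellular protein induced by serum, had the largest difference, 0.92 ± 0.20 (SE), with an adjusted p of 0.376 in limma, and the zinc finger gene KLF6 the lowest, -0.24. Leaving out either 48 h array took CCN1 past the cutoffs, at 1.09 without the control and 1.11 without the ALKBH3 array. For 96 h against 48 h, 11 were positive and 9 negative, with a median of 0.009. DUSP2, a phosphatase of MAP kinases, stood at 0.51 ± 0.12 (SE), but at 0.11 with normexp background correction, 0.075 in the authors' normalized values and 0.28 with quantile normalization. The antiproliferative gene BTG2 stood at -0.55 ± 0.15 (SE), with an adjusted p of 0.187 in limma and of 0.0312 with the block, and at -0.21 with normexp background correction. With the block 1 of the 20 was higher with ALKBH3 shRNA, and 1 was higher and 2 lower at 96 h.

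Genes that signal to AP-1 and EGR genes, such as the MAP kinases, SRF and its ETS partners, made a list of 27. Of these, 26 were named on the array and MAPK8 was not. Between the shRNAs 25 were tested, of which 6 were positive and 19 negative, with a median of -0.07, and 0 passed the cutoffs or the block. The differences lay between -0.50 for RPS6KA3, a kinase downstream of ERK, and 0.21 for MAP3K1, a kinase upstream of JNK. For the time points 26 were tested, 14 positive and 12 negative, with a median of 0.02. The neuronal kinase gene MAPK10 was the only one of the 26 past the cutoffs, with an adjusted p of 0.163 in limma, and since it was not well above background at 96 h the fall with the main processing was at least 1.53-fold. The highest value was 0.28 for RPS6KA1, which like RPS6KA3 encodes an RSK kinase. MAPK10 measured -1.08 and did not pass with normexp background correction (-0.41), in the authors' normalized values (-0.91), by the methods' t-test, or when the 48 h ALKBH3 array (-0.76) or the 96 h control array (-0.92) was left out.

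AP-1 target genes, which include matrix proteases and cytokines, numbered 18. Between the shRNAs 16 were tested, 11 positive and 5 negative, with a median of 0.18, and 0 passed the cutoffs. CXCL8, the neutrophil chemokine, read -3.77 under control and -2.74 under ALKBH3 shRNA after 48 h, and -4.74 and -3.77 after 96 h. It was higher with ALKBH3 shRNA by 1.0 ± 0.48 (SE, n = 2), with an adjusted p of 0.704 in limma and of 0.0264 with the block. It was lower at 96 h by a like size, -1.0 ± 0.49 (SE), with an adjusted p of 0.348 in limma and of 0.0219 with the block. Without the 48 h control or the 96 h ALKBH3 array CXCL8 passed the cutoffs, at 1.48 and 1.52 between the shRNAs and at -1.52 and -1.48 between the time points. Without the 48 h ALKBH3 or the 96 h control array it was 0.48 and 0.52 between the shRNAs and -0.48 and -0.52 between the time points. MMP1, an interstitial collagenase, had the lowest difference between the shRNAs, -0.54 ± 0.20 (SE), and did not pass. With the block 3 targets were higher with ALKBH3 shRNA and 0 lower.

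Between the time points 17 AP-1 targets were tested, 2 positive and 15 negative, with a median of -0.13. MMP3, the stromelysin, passed the cutoffs upward with an adjusted p of 0.143 in limma. It was not well above background at 48 h, and its rise was at least 2.37-fold with the main processing only. The measured difference was 1.39 ± 0.30 (SE). It was 0.48 with normexp background correction and 0.79 in the authors' normalized values, under the cutoffs in both, and did not pass by the methods' t-test. With the block 0 were higher and 4 lower at 96 h. The EGR1 target list had 8 genes, of which 7 were tested, 4 positive and 3 negative between the shRNAs, with a median of 0.05. HPSE, the heparanase gene, was the highest between the shRNAs at 0.55 ± 0.15 (SE), with an adjusted p of 0.465 in limma and of 0.0439 with the block, and PDGFA, a platelet-derived growth factor, the lowest at -0.30. Between 48 h and 96 h, 1 EGR1 target was positive and 6 negative, with a median of -0.13. IGF2, the fetal growth factor, fell by 1.77 on the log2 scale at 96 h (SE 0.13), with an adjusted p of 0.112 in limma and of 0.0219 with the block. The mean over the IGF2 probes was -0.81, which did not pass the cutoffs.

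**Figure D4:**
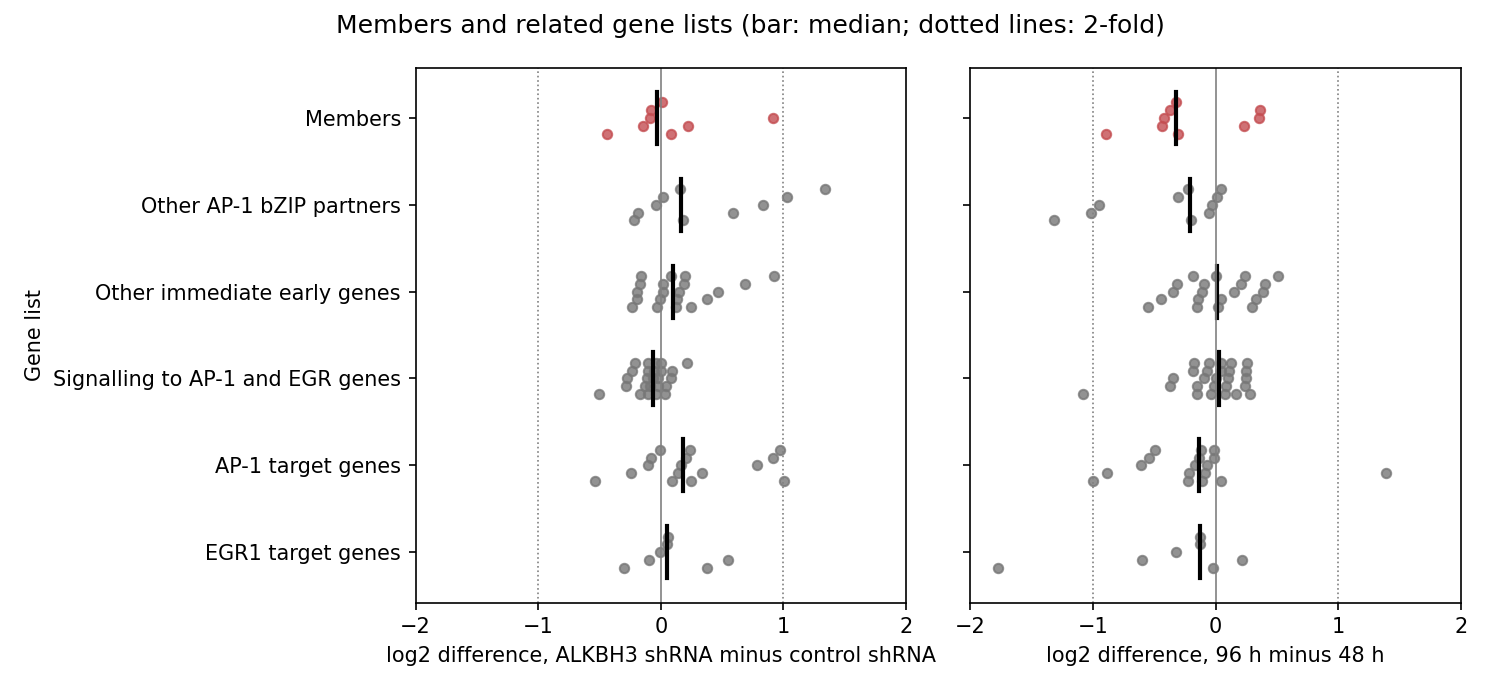
Log2 difference of every tested gene in the members and in 5 related lists, between the shRNAs on the left and between 48 h and 96 h on the right. Each dot is a gene, black bars are medians and dotted lines a 2-fold difference. The members center on -0.03 between the shRNAs and on -0.32 between the time points.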

How the data were processed

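For each of the 4 arrays the authors deposited a spot table of processed intensity from Agilent Feature Extraction (10.7.3.1 per the file headers), background-subtracted within each array only. A second table deposited by the authors holds log2 intensities normalized between arrays, for which the methods name limma, and served as an alternative. Spots marked non-uniform or as outliers (180 to 379 per array) were removed, none was saturated, intensities were converted to log2 and centred on the 75th percentile of the non-control spots, and spots of a probe were averaged. The tables gave no gene symbols, so probes were named by accession in the GRCh38.p14 RefSeq table (24910 of 34127 probes matched). The array annotation used hg19. A probe was tested if at least 0.5 of its spots exceeded background well on each array of either shRNA or, for time, of either time point, and the brightest tested probe stood for a gene.

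R 4.3.3 with limma 3.58.1 compared 2 with 2 arrays by lmFit and eBayes without a covariate, fitted across all genes. The cutoffs were the log2 difference of at least 1 and the unadjusted p below 0.05 that the study states, with Benjamini-Hochberg adjustment across every gene tested. The time point or the shRNA as a replicate block was an alternative: across 14556 genes the difference between time points correlated at r = 0.703 between the shRNAs, and that between shRNAs at r = 0.673 between the time points, and genes are not independent. Other alternatives were normexp (offset 50), quantile normalization, median centring, the authors' values, no filter, requiring all 4 arrays above background, averaging probes, the methods' t-test and leaving out each array. The steps were tested on simulated data. The labels do not say that arrays came from separate cultures. Named genes were all 10 members and, from each list, genes past the cutoffs and the highest and lowest difference tested, apart from some that are not reported here. Members and lists were chosen with earlier results of these data known.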

Additional observations from a re-analysis of the deposited data

Results flagged for a closer look

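IER3 was the 1 member tested whose difference between the shRNAs had opposite signs at the time points, with each larger in size than the median absolute difference of all genes tested at that time point (0.145 at 48 h and 0.140 at 96 h). ALKBH3 minus control was -0.18 at 48 h and 0.20 at 96 h, each from 1 array against 1 array, and the second IER3 probe gave -0.23 and 0.21. The difference between the time points was not tested.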

How the results depend on the processing

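No array was replicated within a shRNA and time point, and dim members (FOS at 96 h, EGR1) are limited by background. Between the shRNAs, against 151 genes higher and 34 lower past the cutoffs, normexp background correction gave 62 and 22, the authors' values 88 higher, no filter 276 and 56, a filter on all 4 arrays 100 higher and the methods' t-test 45 and 15. Leaving out 1 array gave 256 and 54 without the 48 h control, 262 and 89 without the 48 h ALKBH3, 149 and 80 without the 96 h control and 381 and 30 without the 96 h ALKBH3 array. Members past the cutoffs went from 0 to 1 with no filter (EGR1, not well above background on any array). The EGR2 difference was 1.31 without the 48 h control array. Between the time points, against 36 genes higher and 115 lower, normexp gave 13 and 44, median centring 57 higher, the authors' values 17 higher, no filter 339 higher, a filter on all 4 arrays 18 higher and the methods' t-test 21 and 50. The share of calls that were higher was 70.9% with no filter and 35.6% with median centring. Leaving out 1 array gave, in the same order of arrays, 46 and 299, 104 and 143, 240 and 154, and 77 and 184, with 0 to 1 members lower, which was also 1 with quantile normalization (FOSB).

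With the shRNA as a replicate block 175 genes were lower at 96 h past the cutoffs, and at an adjusted p below 0.05 the block passed 1950 genes between the time points and 649 between the shRNAs, where the fit without it passed 0. The pairs of arrays share a slide or a shRNA. The methods' t-test passed 1 and 0 genes at that threshold.

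None of the differences whose sign turned had passed the cutoffs with the main processing. IER3 between the shRNAs was -0.018 with normexp, -0.018 with median centring and -0.0072 in the authors' values, and -0.24 to 0.26 when 1 array was left out. The same ranges were -0.89 to 0.011 for FOSB, -0.34 to 0.049 for FOSL1, -0.17 to 0.33 for FOSL2, -0.31 to 0.15 for JUNB, -0.34 to 0.17 for JUND and -0.49 to 0.015 for KLF6. Between the time points they were -1.01 to 0.36 for EGR2 and -0.061 to 0.49 for HPSE. The cause was not tested. The signs of all other named differences of members and list genes held under every alternative that could be fitted. FOS, DUSP2, MAPK10 and MMP3 could not be fitted with the filter on all 4 arrays. The signs of the cell type markers, CDH1 and EPCAM among them, were not checked under the alternatives.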
